A study of Rattus norvegicus with 40 samples.

Results

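Solute carriers are membrane proteins that move amino acids, organic acids, ions, metals, nucleosides and other small solutes across cell membranes, and their gene symbols start with Slc. The 133 gene models described here are kidney-expressed carriers, out of 31677 gene models measured. They were selected on their level in the kidney preparations: every gene model with a symbol starting with Slc and at least 5 FPKM (fragments per kilobase of transcript, scaled to library size) in at least 1 of 5 kidney groups. Left out by family were the glucose and sodium-glucose carriers Slc2a and Slc5a, the exchangers and cotransporters Slc9a and Slc12a, the phosphate carriers Slc20a and Slc34a, the organic ion carriers Slc22a and the mitochondrial carriers Slc25a, and by gene Slc6a6, Slc6a12 and Slc27a2. In all, 333 gene models carried such a symbol, of which 90 were allowed by family but stayed under 5 FPKM in kidney, 86 of the left-out carriers reached 5 FPKM and 24 of them did not.

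The RNA came from cells that the labels call kidney T cells and circulating T cells of SS rats, the Dahl salt-sensitive strain, whose blood pressure rises on high-salt chow. The groups were SS/CRL rats on HS chow for 3 weeks at 10 weeks of age, SS/CRL rats on LS chow at 10 weeks, SS/MCW rats on HS chow for 3 weeks at 10 weeks, SS/MCW rats on LS chow at 10 weeks and SS/MCW rats on LS chow at 7 weeks, each with a kidney and a circulating sample. HS and LS are the labels' names for the chows, here taken as high and low salt. Every one of the 10 groups held 4 libraries, each from a pool of 3 rats, and the 40 libraries enter the deposited tables as 1 FPKM value per group with a test of each comparison, so the value of each library and its SD cannot be shown. The error given below is the SE (standard error) of the log2 fold change, obtained by dividing that fold change by the Cuffdiff statistic. It can differ from the error that the deposited p-value implies: Slc16a14 in the SS/CRL salt comparison had a statistic of -1.48 and a p-value of 0.00225 from Cuffdiff. A gene model is called higher or lower where the deposited q-value, the authors' adjusted p over all gene models of a comparison, is under 0.05.

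The nephron works as a chain of segments. In the proximal tubule, carriers of the brush border take amino acids, sulfate, citrate and other organic acids out of the filtrate, and partners on the basolateral side pass them to the blood. Further along, urea carriers and anion exchangers of the distal tubule and collecting duct adjust water, acid and urea. T cells have their own set, among them the amino acid carriers that support growth, nucleoside carriers and choline-like carriers.

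The label of the kidney cells was set against marker genes. Summed over 10 T cell markers, the kidney groups held 191 to 714 FPKM and the circulating groups 4344 to 5515 FPKM, and none of the 10 was listed at 0 in any group. Cd3e, part of the antigen receptor of T cells, was at 20.5 FPKM in the SS/CRL HS kidney group and 99.0 FPKM in the SS/MCW HS kidney group, which were the ends of its kidney range, against 740 to 874 FPKM in the circulating groups. Summed over 9 proximal tubule markers the kidney groups held 1922 to 7004 FPKM and the circulating groups 17.1 to 23.1 FPKM, and over 9 markers of the thick limb, distal tubule and collecting duct they held 1561 to 14370 FPKM against 1.42 to 3.94 FPKM. Kidney and circulating sums were 150 to 795 and 46.3 to 64.4 FPKM for 9 macrophage markers, 403 to 3960 and 59.3 to 193 FPKM for 4 red cell markers, 104 to 193 and 28.8 to 32.3 FPKM for 6 endothelial markers, 3.79 to 23.8 and 0.00548 to 0.0245 FPKM for 5 fibroblast markers, 2.28 to 6.23 and 22.5 to 44.1 FPKM for 3 B cell markers, and 9.45 to 40.7 and 27.9 to 114 FPKM for 4 platelet markers. The kidney samples thus carried T cell and tubule transcripts together, and the levels below are those of the whole preparation. In such bulk samples, fewer cells of a type and less RNA per cell cannot be told apart.

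Grouped by what they carry, 21 of the 133 gene models belong to amino acid families, 22 to families for organic anions and monocarboxylates, 11 to families for bicarbonate and other anions, 17 to families for peptides, nucleosides, vitamins and choline, 23 to metal families, 20 to families for nucleotide sugars and other intracellular cargo and 17 to other families. The remaining 2, Slc4a1ap and Slc7a6os, are named after a neighbouring or partner carrier and are no carriers. Of the 133, 106 held at least 5 FPKM in all 5 kidney groups and 9 in 1 group alone. Just inside the threshold lay Slc52a3, Slc26a11 and Slc30a4, with highest kidney values of 5.13, 5.36 and 5.43 FPKM, and just outside lay Slc35e4, Slc35a5 and Slc51a at 4.99, 4.70 and 4.60 FPKM. A total of 10 gene models carry more than 1 symbol, such as Hsd17b8,Slc39a7, and their level cannot be split between the genes named.

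The most abundant carriers in kidney included those of the proximal tubule brush border. Slc3a1, the heavy chain of the cystine and dibasic amino acid carrier, was at 207 FPKM in SS/CRL HS kidney, 522 FPKM in SS/CRL LS kidney, 144 FPKM in SS/MCW HS kidney, 215 FPKM in SS/MCW LS kidney at 10 weeks and 179 FPKM in SS/MCW LS kidney at 7 weeks, against 0.204 to 0.276 FPKM in the circulating groups. These levels set 5 tables side by side that were normalised separately; a group present in several tables kept its profile and changed by a common scaling. Slc4a11, a proton and water carrier known from the corneal endothelium, followed with 65.9 to 284 FPKM in kidney against 31.4 to 35.4 FPKM in circulating cells. Slc6a18, a carrier of glycine and other neutral amino acids, held 88.8 to 374 FPKM in kidney and 0 to 0.0219 FPKM in circulating cells.

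Some of the next in order, like Slc4a11, also had sizeable levels in circulating cells. Hsd17b8,Slc39a7, which includes a zinc carrier of the endoplasmic reticulum, held 112 to 130 FPKM in kidney and 71.3 to 88.9 FPKM in circulating cells, the narrowest kidney range of the 10 most abundant but for Nabp2,Slc39a5, at 58.2 to 66.5 FPKM in kidney and 47.9 to 58.5 FPKM in circulating cells. Slc3a2, the heavy chain shared by many amino acid exchangers, held 80.7 to 166 FPKM in kidney and 31.4 to 39.5 FPKM in circulating cells. Also among the 10 were the dicarboxylate carrier Slc13a3 at 56.9 to 153 FPKM, Bdh2,Slc9b2 at 37.2 to 98.2 FPKM, Slc7a13, a partner of Slc3a1, at 43.5 to 69.1 FPKM, and the creatine carrier Slc6a8 at 47.3 to 86.2 FPKM in kidney. In circulating cells they were at 0 to 0.0179, 2.54 to 3.15, 0 and 0.709 to 0.887 FPKM in that order.

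**Figure D1:**
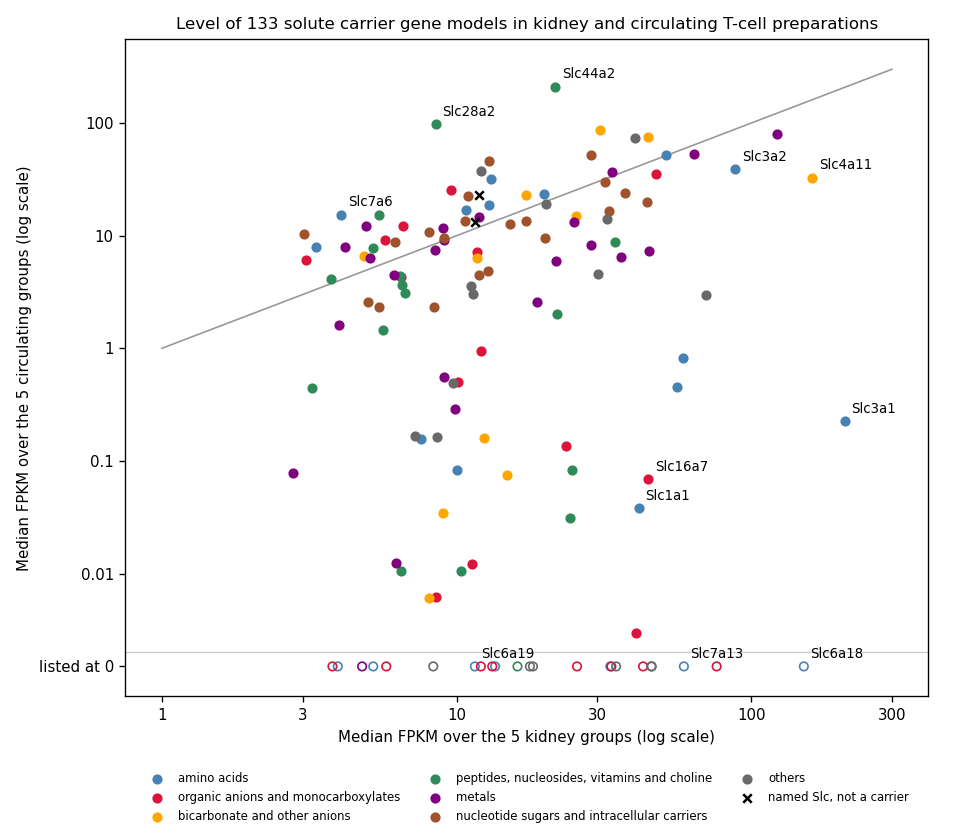
Each point is 1 of the 133 gene models, placed by its median FPKM over the 5 kidney groups (horizontal, log scale) and over the 5 circulating groups (vertical, log scale); open circles on the bottom line are the 23 with a circulating median listed at 0, colours are substrate families, and the line marks equal levels. Proximal tubule carriers such as Slc3a1 and Slc6a18 lie far below the line, while Slc44a2 and Slc28a2 lie above it.

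Between the tissues the choice of members favours kidney, so the counts of this contrast are a description and no test. Members called higher in kidney than in circulating cells numbered 58 in SS/CRL HS rats (30.6% of all gene models tested), 65 in SS/CRL LS rats (31.5% of all), 68 in SS/MCW HS rats (30.6% of all), 63 in SS/MCW LS rats at 10 weeks (26.6% of all) and 76 in SS/MCW LS rats at 7 weeks (32.9% of all). Members called lower in kidney numbered 28, 23, 17, 17 and 17 in the same order of groups, where 20.3%, 22.0%, 18.4%, 17.0% and 23.9% of all gene models tested were lower. In that order 43.6%, 48.9%, 51.1%, 47.4% and 57.1% of the members were higher and 21.1%, 17.3%, 12.8%, 12.8% and 12.8% lower. Of the tested gene models with at least 5 FPKM in any kidney group, 36.8%, 39.4%, 36.3%, 33.0% and 39.2% were higher and 22.6%, 21.7%, 18.3%, 15.6% and 23.7% lower. In all 5 groups of rats 44 members (33.1%) were higher in kidney, 13 (9.77%) were lower and 14 (10.5%) were called in none. Over all gene models with at least 5 FPKM in any kidney group, these shares were 20.4%, 12.2% and 23.3%. For 86 members the lowest kidney value lay above the highest circulating value, and for 25 the order was the opposite. The kidney minimum of 5 FPKM favours the first of these counts, and neither was made over all gene models.

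What circulating cells held was not used to choose the members, and it split them widely. In circulating cells 9 members were listed at 0 in all 5 groups, 51 stayed under 1 FPKM in every group and 62 were at or above 5 FPKM in every group. Among the 104 with a value above 0 in all 10 groups, the largest median log2 ratios of kidney over circulating cells were 10.03 for the glutamate carrier Slc1a1, 9.94 for Slc16a14, 9.84 for Slc3a1, 9.79 for the choline-like carrier Slc44a4 and 9.34 for the monocarboxylate carrier Slc16a7. Slc1a1 was at 36.8 to 45.4 FPKM in kidney and 0.0288 to 0.0685 FPKM in circulating cells, and Slc16a7 at 25.2 to 104 FPKM in kidney and 0.0318 to 0.137 FPKM in circulating cells.

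At the other end stood carriers that lymphocytes use. Slc28a2, a purine nucleoside carrier, was at 7.11 to 13.4 FPKM in kidney and 90.4 to 103 FPKM in circulating cells, a median log2 ratio of -3.58. Slc44a2, a choline-like carrier, was at 21.4 to 39.0 FPKM in kidney and 205 to 221 FPKM in circulating cells, with a median log2 ratio of -3.27. Slc7a6, a light chain that pairs with Slc3a2, was at 2.87 to 7.03 FPKM in kidney and 15.1 to 15.5 FPKM in circulating cells (median log2 ratio -1.93). Slc35d2 and Pim2,Slc35a2, both with nucleotide sugar carriers, had median log2 ratios of -1.77 and -1.69.

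The list of proximal tubule carriers had 32 members, of which 13 (40.6%) were higher in kidney in all 5 groups of rats and 0 lower in all 5, against the 20.4% and 12.2% of all gene models with at least 5 FPKM in kidney. The list of carriers known in blood cells had 13, of which 1 (7.69%) was higher in all 5 and 4 (30.8%) were lower in all 5, against the same 20.4% and 12.2%. Within that list Slc3a2, Slc38a2, Slc44a2 and Slc38a1 were the most abundant in kidney. Slc38a2, a carrier of small neutral amino acids, held 38.9 to 52.6 FPKM in kidney and 45.5 to 54.1 FPKM in circulating cells, and its relative Slc38a1 held 9.05 to 15.6 FPKM in kidney and 30.4 to 36.8 FPKM in circulating cells. Slc11a1, an iron and manganese carrier of macrophage phagosomes, was at 5.33 to 13.5 FPKM in kidney and 0.400 to 0.708 FPKM in circulating cells. Slc4a1, the anion exchanger of red cells and of acid-secreting cells of the collecting duct, was at 5.28 to 9.66 FPKM in kidney and 0.0298 to 0.0806 FPKM in circulating cells.

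Among zinc carriers, 16 in number, Slc30a9 was at 30.5 to 36.6 FPKM in kidney and 35.7 to 37.8 FPKM in circulating cells. Slc39a1, which brings zinc in across the plasma membrane, was at 17.1 to 33.5 FPKM in kidney and 8.03 to 9.92 FPKM in circulating cells. The nucleotide sugar carriers, also 16, are here all members of the Slc35 family, named for the cargo of many of them. Their most abundant members Slc35b1, Nfkbie,Slc35b2, Slc35a4 and Slc35b3 held 34.7 to 48.9, 24.7 to 37.9, 30.9 to 38.5 and 21.5 to 29.6 FPKM in kidney, against 21.3 to 24.7, 15.2 to 19.0, 27.8 to 31.9 and 49.9 to 54.6 FPKM in circulating cells. Across the 81 members with at least 1 FPKM in every circulating group, the highest group exceeded the lowest by a median of 1.20-fold in circulating cells, and the same members spread by a median of 1.65-fold across the kidney groups.

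High-salt chow in SS/CRL rats went with lower levels of proximal tubule carriers in kidney. Of the 133 members 26 were called lower in SS/CRL HS than in SS/CRL LS kidney, where 3.07% of all gene models tested were lower, and 3 were higher, where 2.44% of all were higher. For the 26 the log2 fold changes ran from -2.08 to -0.78 with a median of -1.26, while the median over the 133 members was -0.15 and that over all gene models with values in both groups was 0.05. Of the 26, 10 belong to the families for organic anions and monocarboxylates, 8 to the amino acid families, and 18 are on the list of proximal tubule carriers. That list had 31 of 32 members with a lower value on HS, 18 of them called, and a median log2 fold change of -0.94. The SS/CRL LS kidney group had been the highest of the 5 kidney groups for all 26, and Slc6a13 and Slc17a2 entered the 133 through that group alone, so that they had to be higher there.

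Among the amino acid carriers, Slc6a19, which takes up neutral amino acids at the brush border, was at 12.8 FPKM in SS/CRL HS kidney against 42.3 FPKM in SS/CRL LS kidney, a log2 fold change of -1.72 (SE 0.59, Cuffdiff q = 0.00171). Slc7a9, the light chain that pairs with Slc3a1 to take up cystine, was at 47.9 FPKM in SS/CRL HS kidney against 176 FPKM in SS/CRL LS kidney (log2 -1.87, SE 0.62). Its partner Slc3a1 was at 228 FPKM in SS/CRL HS kidney against 588 FPKM in SS/CRL LS kidney (log2 -1.37, SE 0.54). Both chains of that exchanger therefore fell on HS. The other partner of Slc3a1, Slc7a13, stood at 63.9 FPKM in SS/CRL HS kidney and 65.7 FPKM in SS/CRL LS kidney, with q = 0.946.

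The gamma-aminobutyric acid and taurine carrier Slc6a13 was at 4.75 FPKM in SS/CRL HS kidney against 19.4 FPKM in SS/CRL LS kidney (log2 -2.03, SE 0.72), and the gene model RGD1566368,Slc6a20, with a proline carrier, at 14.2 FPKM against 40.6 FPKM (log2 -1.52, SE 0.69). Slc7a8 and Slc7a7, which pass neutral and dibasic amino acids through the basolateral membrane together with Slc3a2, fell by 1.18 and 0.81 on the log2 scale. Slc7a7 was at 88.9 FPKM in SS/CRL HS kidney and 156 FPKM in SS/CRL LS kidney, and their partner Slc3a2 was at 94.9 FPKM in SS/CRL HS kidney and 90.6 FPKM in SS/CRL LS kidney (q = 0.893). The creatine carrier Slc6a8 fell by 0.88. Slc7a5, the large neutral amino acid carrier of growing cells, was at 1.64 FPKM in SS/CRL HS kidney and 1.00 FPKM in SS/CRL LS kidney (q = 0.616).

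Among carriers of organic and inorganic anions, the sulfate carrier Slc13a1 was at 28.6 FPKM in SS/CRL HS kidney against 121 FPKM in SS/CRL LS kidney, the largest of the 26 falls (log2 -2.08, SE 0.76, Cuffdiff q = 0.00171). The dicarboxylate carriers Slc13a2 and Slc13a3 of the same family fell by 1.02 and 1.04 on the log2 scale, Slc13a3 to 83.9 FPKM in SS/CRL HS kidney against 172 FPKM in SS/CRL LS kidney. Slc17a3 and Slc17a1, which carry urate and other organic anions, were at 43.5 and 13.3 FPKM in SS/CRL HS kidney against 176 and 37.5 FPKM in SS/CRL LS kidney (log2 -2.02 and -1.50). Slc17a2 of the same family was at 4.17 FPKM in SS/CRL HS kidney against 14.2 FPKM in SS/CRL LS kidney (log2 -1.77). These 3 genes lie side by side on chromosome 17 (rn5), between 45329002 and 45438547, and Slc17a4, which ends 4179 bases before Slc17a1, had a log2 fold change of 0.41 and was not called.

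The monocarboxylate family contributed Slc16a6, Slc16a14, Slc16a9 and Slc16a13, with log2 fold changes of -1.41, -1.15, -0.83 and -0.82. Slc16a6, a ketone body carrier in zebrafish liver, was at 9.59 FPKM in SS/CRL HS kidney against 25.5 FPKM in SS/CRL LS kidney, while circulating cells held 24.2 to 28.0 FPKM of it. Slc26a6, an exchanger of chloride for oxalate, formate and bicarbonate, fell by 1.25, and Slc4a4, which returns bicarbonate to the blood, fell by 0.78 on the log2 scale (q = 0.0116 and 0.00321 in Cuffdiff).

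The other called falls were the pyrimidine nucleoside carrier Slc28a1, at 18.3 FPKM in SS/CRL HS kidney against 63.5 FPKM in SS/CRL LS kidney (log2 -1.80), the folate carrier Slc19a1 (log2 -1.24), and the glucose 6-phosphate carrier Slc37a4 of the endoplasmic reticulum, at 51.6 FPKM in SS/CRL HS kidney against 130 FPKM in SS/CRL LS kidney (log2 -1.33). The iron carrier Slc11a2 was at 26.9 FPKM in SS/CRL HS kidney against 64.6 FPKM in SS/CRL LS kidney (log2 -1.27). Slc21a4, named Slco1a3 in RefSeq and a carrier of organic anions, and Slc47a1, which exports organic cations into the filtrate, fell by 0.86 and 0.85.

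The 3 members that rose were of other kinds. Slc14a2, the urea carrier of the collecting duct, was at 76.3 FPKM in SS/CRL HS kidney against 26.5 FPKM in SS/CRL LS kidney, a log2 fold change of 1.52 (SE 0.51, Cuffdiff q = 0.00171). The neighbouring urea carrier Slc14a1, known from red cells and vasa recta endothelium, was at 17.4 FPKM in SS/CRL HS kidney against 9.74 FPKM in SS/CRL LS kidney (log2 0.84, q = 0.0337), and the zinc carrier Slc39a1 at 31.8 FPKM in SS/CRL HS kidney against 19.2 FPKM in SS/CRL LS kidney (log2 0.73, q = 0.0305). Slc14a1 and Slc14a2 lie 3480 bases apart on chromosome 18 (rn5), and whether the authors' assembly split reads between them was not tested.

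**Figure D2:**
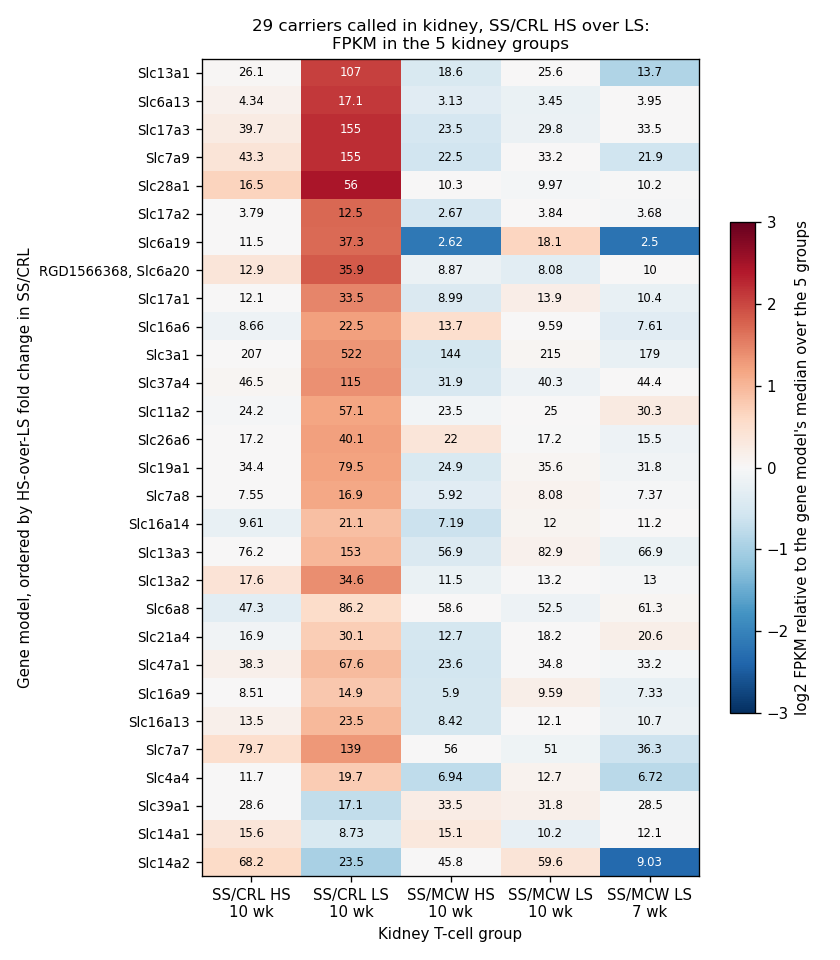
Rows are the 29 gene models called between SS/CRL HS and SS/CRL LS kidney, ordered by fold change; columns are the 5 kidney groups; printed numbers are FPKM from the tables that compare tissues, and colour is log2 FPKM relative to the row's median over the 5 groups. The SS/CRL LS column is the highest of its row for all 26 carriers that fell, and Slc6a19 stands out with 2.62 and 2.50 FPKM in the SS/MCW HS and 7-week groups.

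Tubule markers moved beside these carriers. Summed proximal tubule markers were at 5061 FPKM in SS/CRL HS kidney against 7004 FPKM in SS/CRL LS kidney, with 7 of 9 at a lower value, 4 of them called lower and a median log2 fold change of -0.48. The median of these 9 markers was at 305 FPKM in SS/CRL HS kidney against 606 FPKM in SS/CRL LS kidney. Their log2 fold changes ran from -1.31 to 0.99. Markers of the thick limb, distal tubule and collecting duct had a higher value on HS in 8 of 9, with 3 called higher and a median log2 fold change of 0.59. T cell markers summed to 191 FPKM in SS/CRL HS kidney and 254 FPKM in SS/CRL LS kidney, with 1 of 10 called lower. Red cell markers summed to 619 FPKM in SS/CRL HS kidney against 2789 FPKM in SS/CRL LS kidney, with 3 of 4 called lower, and 4 of 6 endothelial markers were called higher. The part of these markers in the carriers' fold changes was not tested. Among the left-out carriers with at least 5 FPKM, 15 of 85 tested were lower and 4 higher in SS/CRL HS kidney.

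The promoters of carriers that moved are shown to set their sequence beside the values. They are the 250 bases before the start of each gene in RefSeq (GRCr8), 5′ to 3′ on the strand of the gene, and 104 of the 133 members have an entry there. Slc6a19 (chr1:31414494-31414743, plus strand) and its neighbour Slc6a18 (chr1:31436403-31436652, plus strand) are the brush border pair, of which Slc6a19 fell in both rat types, Slc3a1 (chr6:15394750-15394999, minus strand) fell on HS in SS/CRL kidney, and Slc14a2 (chr18:73921585-73921834, minus strand) rose. Capitals mark matches on either strand to GTTAAT, letters of sites for HNF1 factors, and to CAAAGTCC, letters of a site for HNF4 factors, both families being transcription factors of the proximal tubule. These motifs share no more than part of their letters, and no match of one overlapped a match of the other in the promoters shown.

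Slc6a19: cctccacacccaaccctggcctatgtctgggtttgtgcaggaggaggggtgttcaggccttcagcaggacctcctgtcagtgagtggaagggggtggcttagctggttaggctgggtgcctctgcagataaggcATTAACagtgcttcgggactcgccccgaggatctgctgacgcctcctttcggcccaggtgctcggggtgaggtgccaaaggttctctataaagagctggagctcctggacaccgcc
Slc6a18: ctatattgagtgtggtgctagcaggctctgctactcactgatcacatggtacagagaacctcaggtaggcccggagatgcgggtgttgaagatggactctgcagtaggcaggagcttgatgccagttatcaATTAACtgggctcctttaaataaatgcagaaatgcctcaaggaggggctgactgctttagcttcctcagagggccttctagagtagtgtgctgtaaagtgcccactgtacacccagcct
Slc3a1: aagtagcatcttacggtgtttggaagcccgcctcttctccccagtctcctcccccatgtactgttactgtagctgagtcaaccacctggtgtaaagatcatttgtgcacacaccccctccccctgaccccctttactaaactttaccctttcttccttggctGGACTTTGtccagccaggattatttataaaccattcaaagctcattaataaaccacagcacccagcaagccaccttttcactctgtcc
Slc14a2: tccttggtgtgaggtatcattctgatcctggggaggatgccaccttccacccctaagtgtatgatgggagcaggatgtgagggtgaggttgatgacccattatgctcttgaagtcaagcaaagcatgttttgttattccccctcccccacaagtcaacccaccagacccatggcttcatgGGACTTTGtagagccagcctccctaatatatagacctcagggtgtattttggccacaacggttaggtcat

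The letters, chosen after some of these promoters had been read, were counted over all promoters as well. GTTAAT stood in 1 of the 18 members with a promoter that fell on HS in SS/CRL kidney (5.56%, Slc6a19), in 4 of 25 proximal tubule carriers with a promoter (16%), in 7 of 104 members (6.73%) and in 6.52% of all 27457 promoters. CAAAGTCC stood in Slc3a1 alone of the 18 (5.56%), in 2 of 25 proximal tubule carriers (8%), in 3 of 104 members (2.88%), Slc14a2 among them, and in 1.15% of all promoters. AGGTCA, letters shared by sites of many nuclear receptors and not marked in capitals, stood in 3 of the 18 (16.7%), in 4 of 25 proximal tubule carriers (16%), in 15 of 104 members (14.4%) and in 13.7% of all promoters. No test was made of these shares. A match describes the letters and is not a site shown to be bound.

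In SS/MCW rats, 1 member was called between HS and LS kidney. Slc6a19 was at 2.92 FPKM in SS/MCW HS kidney against 21.1 FPKM in SS/MCW LS kidney, a log2 fold change of -2.85 (SE 1.04, Cuffdiff q = 0.0179). That was the only member called lower, where 0.175% of all gene models tested were lower, and 0 members were higher in Cuffdiff, where 0.258% of all were higher. With under 5 FPKM in SS/MCW HS kidney, Slc6a19 entered the set through another group, so its call is a description. An unadjusted p under 0.05 was given to 6 of the 133 members and to 828 of all 19385 gene models tested. The members' median log2 fold change was -0.06, against -0.05 over all gene models with values in both groups.

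The other amino acid carriers of the brush border had these values without a call. Slc7a13 was at 48.5 FPKM in SS/MCW HS kidney and 79.8 FPKM in SS/MCW LS kidney (log2 -0.72), and Slc6a18, the gene 1715 bases from Slc6a19 in rn5, had a log2 fold change of -0.80. In the list of proximal tubule carriers 28 of 32 members had a lower value in SS/MCW HS kidney, with a median log2 fold change of -0.47 and Slc6a19 the one called. For the 26 carriers that fell in SS/CRL kidney, the SS/MCW values ran from -2.85 to 0.47 with a median of -0.52, and 21 of them were below 0. Proximal tubule markers summed to 2309 FPKM in SS/MCW HS kidney against 4158 FPKM in SS/MCW LS kidney, with 9 of 9 at a lower value and 0 called. T cell markers summed to 714 FPKM in SS/MCW HS kidney against 403 FPKM in SS/MCW LS kidney, with 10 of 10 at a higher value and 0 called in Cuffdiff. Red cell markers summed to 403 FPKM in SS/MCW HS kidney against 3960 FPKM in SS/MCW LS kidney, with 2 of 4 called lower. Their part in the values of the carriers was not tested.

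Whether the salt effect differed between the rat types was tested by a z of the difference of both log2 fold changes, SS/MCW minus SS/CRL, with Benjamini-Hochberg adjustment over 16429 gene models. None of the 133 members passed in kidney, and 0 had an unadjusted p under 0.05. Among all gene models 0% passed, and 109 had an unadjusted p under 0.05. Over all gene models this z had an SD of 0.61, under the 1 of a standard normal value. The largest z in size was that of Slc14a2, with a log2 fold change of -0.39 in SS/MCW rats and 1.52 in SS/CRL rats, a difference of -1.92 (SE 1.00). Next came Slc16a6, at 0.47 in SS/MCW rats and -1.41 in SS/CRL rats, a difference of 1.88 (SE 1.02). With the SE taken from the deposited p instead, the z had an SD of 1.08 and the counts were larger. An unadjusted p under 0.05 from that z was found for 16 of 133 members and 1131 of 16429 gene models. After adjustment 0 members and 60 of all gene models passed. The adjusted p was then 0.0890 for Slc14a2 and 0.104 for Slc16a6. A difference between the rat types is thus not shown for any member, nor its absence. In circulating cells 0 of 87 members passed, and 0 had an unadjusted p under 0.05. Of 16360 gene models 0.0367% passed, and 27 had an unadjusted p under 0.05. There the z had an SD of 1.32 over all gene models, above 1, and of 0.68 with the SE from the deposited p.

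**Figure D3:**
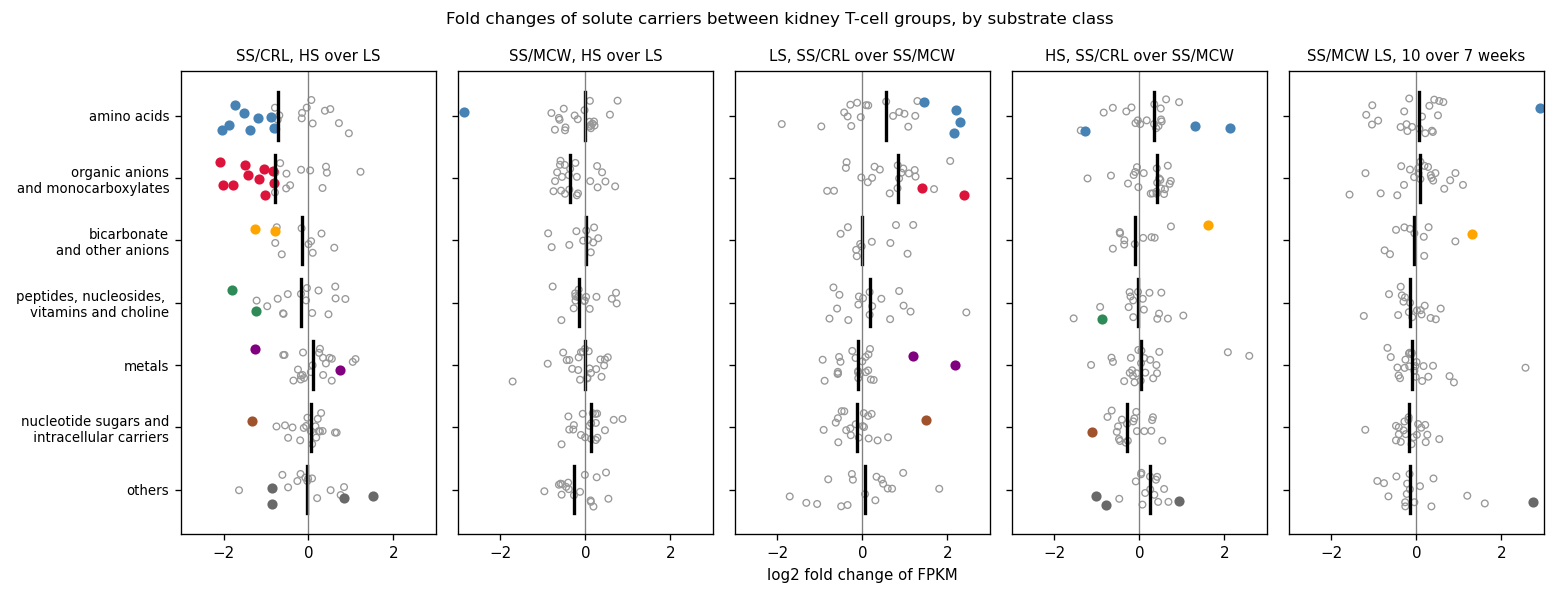
Each panel is 1 of the 5 comparisons within kidney, each circle 1 of 131 carriers with its log2 fold change of FPKM (horizontal) in the row of its substrate class, filled where called (q under 0.05) and open where not; black bars are class medians. In SS/CRL HS over LS the filled circles of amino acid, organic anion and monocarboxylate carriers all lie left of 0, and in SS/MCW HS over LS the single filled circle is Slc6a19 at -2.85.

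On LS chow, the members that differed between SS/CRL and SS/MCW kidney were all higher in SS/CRL. The comparison called 9 members higher, where 1.36% of all gene models tested were higher. It called 0 lower in Cuffdiff, where 0.444% of all were lower. In either direction, 33 of the 133 members had an unadjusted p under 0.05, beside 1743 of all 18032 gene models tested. The SS/CRL LS kidney libraries are those of the SS/CRL salt comparison, so the values of both are not independent. Slc17a3 was at 172 FPKM in SS/CRL LS kidney against 32.9 FPKM in SS/MCW LS kidney, a log2 fold change of 2.39 (SE 0.94, Cuffdiff q = 0.00524). Slc7a9 was likewise at 172 FPKM in SS/CRL LS kidney against 37.4 FPKM in SS/MCW LS kidney (4.60-fold, SE 0.84 on the log2 scale). Slc6a13 is also among the 9, at 19.0 FPKM in SS/CRL LS kidney against 3.85 FPKM in SS/MCW LS kidney, but it reached 5 FPKM in SS/CRL LS kidney alone, so it had to be higher there and its call is a description.

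Slc30a2, a zinc carrier that loads vesicles, was at 9.08 FPKM in SS/CRL LS kidney against 1.99 FPKM in SS/MCW LS kidney (log2 2.19, SE 1.24, q = 0.0128). Being under 5 FPKM in SS/MCW LS kidney, Slc30a2 entered the 133 through another group, so its call is a description as well. RGD1566368,Slc6a20 was at 39.8 FPKM in SS/CRL LS kidney against 8.98 FPKM in SS/MCW LS kidney (log2 2.15). The remaining calls were Slc37a4, Slc7a7, Slc13a2 and Slc11a2, with log2 fold changes of 1.50, 1.45, 1.40 and 1.19. Slc7a7 reached 153 FPKM in SS/CRL LS kidney against 56.2 FPKM in SS/MCW LS kidney. The list of proximal tubule carriers had 29 of 32 members with a higher value in SS/CRL LS kidney, 7 of them called, and a median log2 fold change of 0.98, against 0.08 over the 133 members. Proximal tubule markers had a higher value in SS/CRL LS kidney in 7 of 9, with 1 called. Markers of most other cells had a lower value there, those of the distal nephron in 8 of 9, of macrophages in 8 of 9, of endothelium in 5 of 6, of fibroblasts in 5 of 5 and of T cells in 8 of 10, each with 1 called, and those of red cells in 4 of 4 with 0 called. The 3 B cell markers had a higher value, with 0 called. Their part in the carriers' values was not tested.

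Some carriers with large fold changes were not called on LS chow. Slc28a1 had a log2 fold change of 2.45 with q = 0.203, Slc13a1 of 2.07 with q = 0.0759, and Slc6a19, at 41.4 FPKM in SS/CRL LS kidney and 20.8 FPKM in SS/MCW LS kidney, of 0.99 with q = 0.412. Slc7a5 was at 0.980 FPKM in SS/CRL LS kidney and 3.65 FPKM in SS/MCW LS kidney (log2 -1.90, q = 0.285). Slc7a13 was at 64.5 FPKM in SS/CRL LS kidney and 78.5 FPKM in SS/MCW LS kidney (q = 0.868).

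On HS chow 9 members differed between the rat types in kidney, in both directions. The 4 that were higher in SS/CRL stood beside 2.75% of all gene models tested, and the 5 that were lower beside 2.97% of all, and the members' shares of 3.01% and 3.76% were close to those. Slc6a19 was at 13.1 FPKM in SS/CRL HS kidney against 3.00 FPKM in SS/MCW HS kidney, a log2 fold change of 2.13 (SE 0.82, Cuffdiff q = 0.00149). This call of Slc6a19 is a description too, since it was under 5 FPKM in SS/MCW HS kidney and entered through another group. Its neighbour Slc6a18 was at 250 FPKM in SS/CRL HS kidney against 102 FPKM in SS/MCW HS kidney (log2 1.30, SE 0.60, q = 0.00417). Slc4a11 was at 324 FPKM in SS/CRL HS kidney against 106 FPKM in SS/MCW HS kidney (log2 1.61, SE 0.59), and Bdh2,Slc9b2, which includes a sodium-proton exchanger, at 81.1 FPKM in SS/CRL HS kidney against 42.4 FPKM in SS/MCW HS kidney (log2 0.94).

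The members lower in SS/CRL HS kidney included carriers known in blood cells. Slc7a6 was at 3.28 FPKM in SS/CRL HS kidney against 8.03 FPKM in SS/MCW HS kidney (log2 -1.29, SE 0.65, q = 0.00149). As Slc7a6 was under 5 FPKM in SS/CRL HS kidney, it entered the set through another group, and its call is a description. Slc44a2 was at 24.4 FPKM in SS/CRL HS kidney against 44.7 FPKM in SS/MCW HS kidney (log2 -0.87, q = 0.0109). The glucose 6-phosphate antiporter Slc37a1 fell by 1.10, Slco3a1, a carrier of prostaglandins and thyroxine, by 1.02 and the fatty acid carrier Slc27a4 by 0.77 on the log2 scale relative to SS/MCW HS kidney. In the list of carriers known in blood cells 10 of 13 had a lower value in SS/CRL HS kidney, 2 of them called, Slc7a6 included. The median log2 fold change of that list was -0.46. In the list of proximal tubule carriers 29 of 32 had a higher value in SS/CRL HS kidney, 2 of them called, with a median of 0.51. T cell markers had a lower value in SS/CRL HS kidney in 10 of 10, 8 of them called, with a median of -1.74, and macrophage markers in 9 of 9, with 6 called and a median of -2.18. Proximal tubule markers had a higher value in 9 of 9, 3 of them called. The part of these markers in the carriers' values was not tested.

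With age, 3 members changed in kidney of SS/MCW rats on LS chow, all higher at 10 weeks, where 0.774% of all gene models tested were higher. None was lower in Cuffdiff, where 0.297% of all were lower. In either direction, 17 of the 133 members had an unadjusted p under 0.05, beside 1500 of all 18869 gene models tested. Slc6a19 was at 21.1 FPKM at 10 weeks against 2.80 FPKM at 7 weeks, a log2 fold change of 2.91 (SE 1.04, Cuffdiff q = 0.0159). Under 5 FPKM at 7 weeks, Slc6a19 entered the set through another group, so its call is a description. Slc14a2 was at 67.3 FPKM at 10 weeks against 10.1 FPKM at 7 weeks (log2 2.74, SE 0.76, q = 0.00983), and Slc4a11 at 182 FPKM at 10 weeks against 73.8 FPKM at 7 weeks (log2 1.30, SE 0.71, q = 0.0397). Slc3a2 had a log2 fold change of -0.90 (q = 0.182), and Slc14a1 had a log2 fold change of -0.22.

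The proximal tubule list had 21 of 32 members with a higher value at 10 weeks and a median log2 fold change of 0.15, and Slc6a19 was its one call. The 10-week SS/MCW LS kidney libraries are also those of the SS/MCW salt comparison, so the pair of Slc6a19 calls shares its higher group. Proximal tubule markers had a higher value at 10 weeks in 8 of 9 and those of the distal nephron in 2 of 9, with 0 called in either list. Among the other markers, 2 of 4 of red cells, 2 of 5 of fibroblasts, 1 of 10 of T cells and 1 of 9 of macrophages were called higher at 10 weeks, and their part was not tested.

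**Figure D4:**
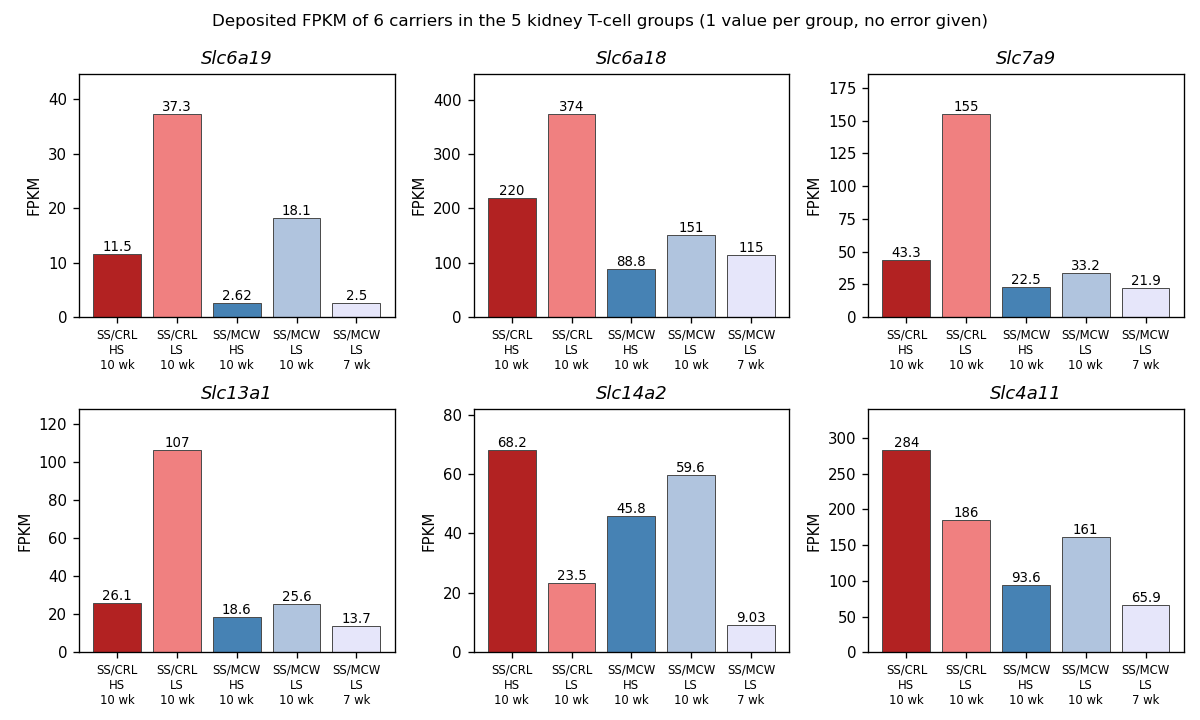
Bars are the deposited FPKM of 6 carriers in the 5 kidney groups (horizontal axis, 1 value per group and no error given), from the tables that compare tissues. Slc6a19 ranges from 2.50 to 37.3 FPKM, Slc7a9 and Slc13a1 are highest in SS/CRL LS kidney, and Slc14a2 is lowest at 9.03 FPKM in 7-week kidney.

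Set side by side, the kidney groups of Slc6a19 were ordered 2.50 FPKM in SS/MCW LS at 7 weeks, 2.62 FPKM in SS/MCW HS, 11.5 FPKM in SS/CRL HS, 18.1 FPKM in SS/MCW LS at 10 weeks and 37.3 FPKM in SS/CRL LS, the widest range of the 133 at 14.9-fold. The 3 next widest were those of Slc7a5, Slc13a1 and Slc39a12, at 7.82-, 7.80- and 7.59-fold, and the median over the 133 was 2.02-fold. Slc7a5 was at 6.94 FPKM in SS/MCW LS kidney at 7 weeks and 0.887 FPKM in SS/CRL LS kidney. It reached 5 FPKM in the 7-week group alone, so it had to be highest there and its range is a description. In 51 members SS/CRL LS was the highest kidney group, among them 15 of 22 in the organic anion and monocarboxylate families and 12 of 21 in the amino acid families, and in 41 it was SS/MCW LS at 7 weeks. These kidney values also chose the members, and the same count over all gene models was not made. The nucleotide sugar carriers had 0 of 16 members called in any of the 5 kidney comparisons by Cuffdiff. An unadjusted p under 0.05 was given to 2 members in SS/CRL HS over LS and 1 in SS/CRL over SS/MCW on HS. Among all gene models tested, 3020 of 20501 and 3148 of 22692 had such a p there. With 0.175% to 3.07% of all gene models called per direction in the 5 kidney comparisons, a count of 0 in a list of 16 is near the background.

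In circulating cells the calls among these carriers were near the background. Of the 133 members 87 to 89 were tested in each comparison, and 0 were called by Cuffdiff for HS over LS in SS/MCW rats (0.107% of all gene models tested were called in either direction), HS over LS in SS/CRL rats (0.670% of all), SS/CRL over SS/MCW on LS (0.541% of all) and SS/CRL over SS/MCW on HS (0.241% of all). An unadjusted p under 0.05 was given to 1, 4, 0 and 0 of them. Over all gene models tested it was given to 1076 of 16885, 1576 of 17169, 610 of 17004 and 368 of 16995. Among the 81 members with at least 1 FPKM in both groups, the largest log2 fold change in these 4 comparisons was 0.61 in size. Slc3a2 was at 35.5 FPKM in SS/CRL HS and 28.6 FPKM in SS/CRL LS circulating cells (q = 0.369), and Slc7a5 was at 7.19 FPKM in SS/CRL HS and 6.57 FPKM in SS/CRL LS circulating cells (q = 0.876).

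Between 10 and 7 weeks 1 member was called in circulating cells of SS/MCW rats on LS chow, where 1.94% of all gene models tested were called. Slc40a1, the cellular iron exporter, was at 0.239 FPKM at 10 weeks against 0.569 FPKM at 7 weeks, a log2 fold change of -1.25 (SE 0.65, Cuffdiff q = 0.0151). Both of its values were under 1 FPKM. Red cell markers summed to 59.3 FPKM at 10 weeks and 193 FPKM at 7 weeks in these circulating cells, and their part in that value was not tested.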

How the data were processed

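RNA from kidney and circulating T cells of SS rats was sequenced in 40 libraries, 4 for each of 10 groups. Per the submitters' processing notes, the tools named are cutadapt, Trim Galore 0.2.5, TopHat, TopHat2 2.1.1, Cufflinks 2.2.1 and Cuffdiff, with build rn5. The authors deposited 15 Cuffdiff tables of 31677 gene models. Per the file headers they hold an FPKM value per group, a test statistic (a score of the comparison), a p-value and a q-value. The smallest deposited p-value is 5e-05. Values of single libraries are not used here, so the depth and its precision are unknown and no library could be left out.

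Each log2 fold change was formed again from both FPKM values, since a spreadsheet had altered the deposited column. The group on top is HS, SS/CRL, 10 weeks or kidney, and 1 table was turned round for this. No fold is given where a group is listed at 0. Calls need status OK and a deposited q-value under 0.05. Differences of effects used a z with a normal two-sided p. It was tried on simulated effects drawn with the same SE, which cannot show whether that SE is right for the data. Python 3.11.15, pandas 2.3.3 and scipy 1.17.1 were used. Pools are taken as separate samples, and the deposited p-values set each group difference against the variance that Cuffdiff modelled. The members, lists, tests and alternatives were chosen with earlier results of these data known. Genes named are every called member within a tissue, the 10 most abundant in kidney, the 5 largest and 5 smallest tissue ratios, those next to the threshold, up to 4 of each list and 6 fixed genes. Beyond that rule, Slc6a18, Slc17a4, Slc39a12, Slc28a1 and Slc13a1 on LS, and the members of the difference test, were named after their values were seen. Classes follow the carrier families. The list of distal and collecting duct carriers had 5 members. In kidney 1 was called higher in SS/CRL HS over LS, 1 in SS/CRL over SS/MCW on HS and 2 at 10 over 7 weeks. Over all gene models tested, 2.44%, 2.75% and 0.774% were higher in that order. In SS/MCW HS over LS and in SS/CRL over SS/MCW on LS 0 of the list were called.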

Additional observations from a re-analysis of the deposited data

How the results depend on the processing

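At a q under 0.01 the count of members called was 0 for HS over LS in SS/MCW kidney, 5 for SS/CRL over SS/MCW on LS, 5 for SS/CRL over SS/MCW on HS, 1 for 10 over 7 weeks in kidney and 0 for 10 over 7 weeks in circulating cells, and in SS/CRL kidney 20 of 29 calls passed. With a minimum of 1 FPKM and the p adjusted again, the circulating count for age was 0, since Slc40a1 is under that level. The other 73 recomputed counts stayed within 1.5 times, among them those without gene models of several symbols or with a kidney mean of at least 5 FPKM. Medians of members moved by over 0.1 in 9 of 30 recomputations, all between tissues. Recentring gave medians of 0.94 to 1.25 and a pseudocount of 1 FPKM up to 1.62. Without values per library, the depth of the libraries and the weight of any single one are unknown. No paired analysis was possible because the deposited tables carry 1 value per group and no column for a pool number.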

Other observations

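Neighbouring carriers were set side by side. On chromosome 10 (rn5), SLC16A11 and Slc16a13, 760 bases apart, had log2 fold changes of -0.67 and -0.82 in SS/CRL HS over LS kidney, 0.92 and 0.96 in SS/CRL over SS/MCW kidney on LS, and -0.48 and -0.55 in SS/MCW HS over LS kidney. Slc6a19 and Slc6a18 had -1.72 and -0.79, then 0.99 and 1.29, then -2.85 and -0.80, in the same comparisons. Slc14a2 and Slc14a1 had 2.74 and -0.22 in SS/MCW LS kidney at 10 over 7 weeks. Slc31a1 and Slc31a2, copper carriers, share 1 deposited locus, as do Nfkbie,Slc35b2 and Slc29a1, and how reads were split between them was not tested.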
